A study of Mus musculus with 2 samples.

Results

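The 10 genes described here were Il1a, Il1b, Il1rn, Il18, Nlrp3, Casp1, Casp4, Gsdmd, Aim2 and Pycard, the IL-1 family cytokines and inflammasome genes named by symbol for this account, out of 55536 mouse genes in the deposited tables. Each symbol matched 1 gene identifier, and all 10 genes had counts in both libraries. RNA depleted of ribosomal RNA came from the nuclei of bone-marrow-derived macrophages of C57BL/6J mice, primary cells that one label places in the nucleus and another in the nucleoplasm. The cells met Lipid A, the part of bacterial lipopolysaccharide that TLR4 recognises, at 100 ng/ml for 12 h, were washed and rested for 12 h, and were restimulated for 120 min with the same 100 ng/ml. This single group had 2 biological replicates that carry the same donor label, with 1 µg of starting RNA for replicate 1 and 500 ng for replicate 2. Sex and age were not collected, separate animals are not stated, and unstimulated or once-stimulated cells were not analysed here, so no value below measures an effect of Lipid A.

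IL-1 alpha and IL-1 beta are inflammatory cytokines that act through the same receptor, which the product of Il1rn, the IL-1 receptor antagonist, occupies without signalling. IL-1 beta and IL-18 are made as inactive precursors. In an inflammasome, a sensor such as NLRP3 or AIM2 gathers the adaptor ASC, encoded by Pycard, which brings caspase-1 together; caspase-1 then cuts both precursors and gasdermin D, whose freed end forms pores in the plasma membrane. The mouse gene Casp4 encodes caspase-11, which senses lipopolysaccharide inside the cell and also cuts gasdermin D. In macrophages, making the RNA of IL-1 beta and NLRP3 is known as the priming step that comes before an inflammasome forms.

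Il1rn has 2 groups of annotated starts with different first exons, and its coding starts are printed because the choice between them decides whether the antagonist carries a secretion signal. The sequences below run 5′ to 3′ from the start codon to the end of the first exon that all 3 share (mm10 with GENCODE M21, plus strand, chr2:24345520-24345571), with the bases of that shared exon in capitals.
Il1rn-201: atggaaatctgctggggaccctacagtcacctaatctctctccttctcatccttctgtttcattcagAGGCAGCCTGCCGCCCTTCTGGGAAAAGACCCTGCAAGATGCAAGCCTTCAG
Il1rn-202: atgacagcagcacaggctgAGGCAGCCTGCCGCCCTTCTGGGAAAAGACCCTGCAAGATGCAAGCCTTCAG
Il1rn-204: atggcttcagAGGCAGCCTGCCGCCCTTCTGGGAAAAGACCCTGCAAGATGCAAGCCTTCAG
Il1rn-201 is the secreted form, with 67 coding bases of its own before the 52 shared ones and a coding length of 534 bases. Il1rn-204 is an intracellular form with only 10 bases of its own and a coding length of 477 bases. Il1rn-202, with 19 bases of its own and a coding length of 486 bases, starts near Il1rn-201.

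The promoters of Il1a, Il1b, Casp4 and both starts of Il1rn are shown for comparison with the levels that follow. Each window holds 250 bases before and 50 after the start as RefSeq gives it (GRCm38.p6) and reads in the direction of the gene, with the motif matches named after them in capitals.
Il1a, chr2:129309923-129310222, minus strand: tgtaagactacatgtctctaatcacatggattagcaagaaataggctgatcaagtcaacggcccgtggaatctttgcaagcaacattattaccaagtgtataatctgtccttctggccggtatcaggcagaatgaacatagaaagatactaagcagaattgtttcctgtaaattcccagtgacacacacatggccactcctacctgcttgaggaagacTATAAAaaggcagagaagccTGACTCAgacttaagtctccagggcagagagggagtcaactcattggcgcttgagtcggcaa
Il1b, chr2:129371090-129371389, minus strand: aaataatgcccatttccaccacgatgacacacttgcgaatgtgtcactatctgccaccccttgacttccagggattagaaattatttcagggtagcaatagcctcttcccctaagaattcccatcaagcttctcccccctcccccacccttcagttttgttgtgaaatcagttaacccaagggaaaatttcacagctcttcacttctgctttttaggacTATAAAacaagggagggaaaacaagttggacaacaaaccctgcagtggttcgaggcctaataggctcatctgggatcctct
Il1rn upstream start, chr2:24336610-24336909, plus strand: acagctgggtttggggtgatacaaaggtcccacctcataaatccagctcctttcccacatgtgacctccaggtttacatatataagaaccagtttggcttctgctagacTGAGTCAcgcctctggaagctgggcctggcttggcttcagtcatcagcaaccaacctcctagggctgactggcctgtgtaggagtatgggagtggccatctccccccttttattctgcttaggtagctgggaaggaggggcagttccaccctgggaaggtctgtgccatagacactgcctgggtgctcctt
Il1rn downstream start, chr2:24345041-24345340, plus strand: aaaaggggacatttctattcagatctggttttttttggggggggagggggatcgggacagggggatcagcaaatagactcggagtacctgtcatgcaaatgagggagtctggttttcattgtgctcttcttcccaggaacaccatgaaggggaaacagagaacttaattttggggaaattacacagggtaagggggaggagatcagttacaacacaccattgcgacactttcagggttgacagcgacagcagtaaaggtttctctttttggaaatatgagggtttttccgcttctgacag
Casp4, chr9:5308599-5308898, plus strand: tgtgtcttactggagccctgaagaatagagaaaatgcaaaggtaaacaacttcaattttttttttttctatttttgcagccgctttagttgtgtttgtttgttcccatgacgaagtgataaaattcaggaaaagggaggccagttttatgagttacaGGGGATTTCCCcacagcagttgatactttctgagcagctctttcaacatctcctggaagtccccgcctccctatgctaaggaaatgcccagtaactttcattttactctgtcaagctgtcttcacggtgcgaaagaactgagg
The table held 13 such windows for 9 of the members, without Gsdmd. Both strands were searched for 5 motifs. The TATA box, TATAAA, begins 32 bases before the start of Il1a and 31 bases before that of Il1b, and it is in 13.6% of all 32817 promoter windows. This share and those below count a match at any position in the window and on either strand. The AP-1 motif, TGANTCA, begins 12 bases before the start of Il1a and 141 bases before the upstream start of Il1rn, and 7.81% of all windows hold it. The NF-kB consensus of 10 letters matched in both overlapping windows of Casp4, where 2 matches overlap by all but 1 base, and in the window of 1 of the Nlrp3 starts; 4.50% of all windows hold it. The C/EBP motif, TTGCNNAA, matched in the Pycard window and in 10.8% of all windows, and the ISRE core, TTTC followed after 2 free bases by another TTTC, matched in none of the 13 windows and in 3.43% of all. The TATA box was also found in the Il18 window and in a further window of Il1rn, on the opposite strand in both. These are matches of letters, and binding was not measured.

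All 10 members were detected, which here means a TPM of 1 or more in both libraries. TPM is the length-corrected level of a transcript among all transcripts, so it can be compared between genes. Each library has gene and transcript tables from one quantification, used here unless stated, and a second transcript table from another. Among 22015 protein-coding genes of the nuclear genome, 39.6% were detected by that rule. At 10 TPM or more in both libraries stood 9 of the 10 members, Pycard being the exception, against 14.3% of protein-coding genes. The median TPM of the members was 50.1 ± 0.19 (SD, n = 2 libraries), against 8.02 ± 2.12 over the 8713 detected protein-coding genes. The 2 libraries place these levels on unlike totals: protein-coding nuclear genes took 17.6% of TPM in replicate 1 and 21.7% in replicate 2, and mitochondrial genes took 4.15% and 10.3% of counts. On this scale most genes stood higher in replicate 2, with a median log2 ratio of replicate 1 over replicate 2 of -0.65, and 7 of the 10 members did as well. After TPM was rescaled over protein-coding nuclear genes alone, the members had a median of 257 ± 36.9, against 40.4 ± 4.83 over detected protein-coding genes (SD, n = 2).

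**Figure D1:**
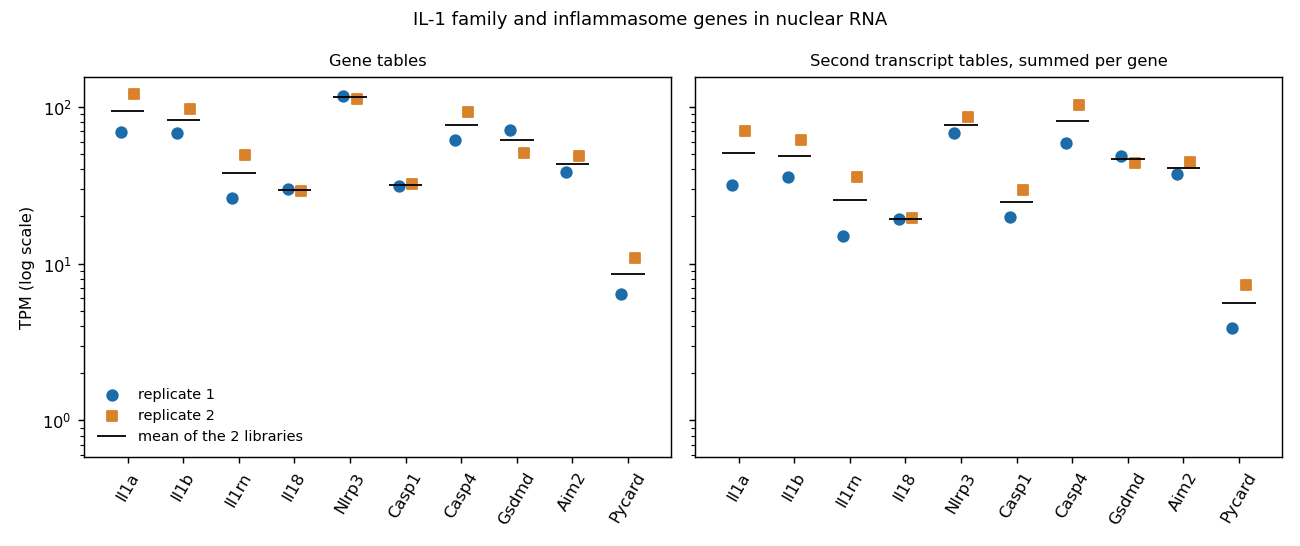
TPM of the 10 members (log axis) in replicate 1 (circles) and replicate 2 (squares), with the mean of the 2 libraries as a line, from the gene tables on the left and from the second transcript tables on the right. Nlrp3 has the highest mean in the gene tables at 114.9 TPM and Casp4 in the second tables at 80.8 TPM, while Pycard is lowest in both.

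The cytokine genes Il1a and Il1b stood close together in level. Il1a had 69.4 TPM in replicate 1 and 120.0 TPM in replicate 2, from 5949 and 4423 expected counts. Il1b had 68.0 TPM in replicate 1 and 96.7 TPM in replicate 2, from 3480 and 2207 expected counts. The ratio of Il1a over Il1b in TPM was 1.02 in replicate 1 and 1.24 in replicate 2, a log2 ratio of 0.17 ± 0.20 (SD, n = 2) that is smaller than its spread, and in the second tables it was 0.889 and 1.15. Both genes lie on the minus strand of chromosome 2 (mm10), Il1a at chr2:129299610-129309972 and Il1b at chr2:129364570-129371139, with 54597 bases between them. Among detected protein-coding genes, Il1a was at percentile 95.5 and 97.0 and Il1b at percentile 95.3 and 96.1 in replicates 1 and 2.

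Il18, on chromosome 9 at chr9:50554827-50581840, was lower than the cytokine genes Il1a and Il1b. It had 30.0 TPM in replicate 1 and 28.95 TPM in replicate 2, from 749 and 314 counts. Its level was 0.442 of the Il1b level in replicate 1 and 0.299 in replicate 2, a log2 ratio of -1.46 ± 0.40 (SD, n = 2). Il18 therefore lay below Il1b in both libraries by more than the spread of the ratio, as it did in the second tables, where the log2 ratio was -1.27 ± 0.55. With 2 libraries no exact test of such a ratio can reach 0.05, and none was made.

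The antagonist gene Il1rn, at chr2:24336853-24351494 on the plus strand, was lower than Il1b. It had 26.1 TPM in replicate 1 and 49.6 TPM in replicate 2, from 2059 and 1726 counts. The log2 ratio of Il1rn over Il1b was -1.17 ± 0.29 (SD, n = 2), a ratio of 0.384 in replicate 1 and 0.512 in replicate 2. In the second tables the ratio was 0.426 and 0.584, so Il1rn was below Il1b in both libraries and both tables.

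Most of Il1rn TPM was assigned to transcripts of the downstream starts, the group that holds the secreted form. These starts lie between the first exon of Il1rn-204 and the shared exon, so unspliced RNA of Il1rn-204 covers their first exons. Whether reads of such RNA were placed on the downstream transcripts was not tested, so the shares do not measure use of the starts. The downstream starts lie 8435 to 8495 bases after the upstream one, and their transcripts took 86.5% of Il1rn TPM in replicate 1 and 85.1% in replicate 2, or 85.8% ± 1.01 (SD, n = 2). Il1rn-201 alone, the secreted form, took 70.3% and 71.5%. Il1rn-204, the intracellular form, took 13.2% and 14.5%. Il1rn-206, a short processed transcript of 636 bases that shares the downstream start, took 15.6% and 12.9%, and Il1rn-202 took 0.61% and 0.67%. The second tables gave the downstream group 86.1% and 87.7%, and differed mainly within it, with 58.1% and 68.0% on Il1rn-201. By counts, which favour longer transcripts, the downstream group had 81.1% and 79.7%.

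**Figure D2:**
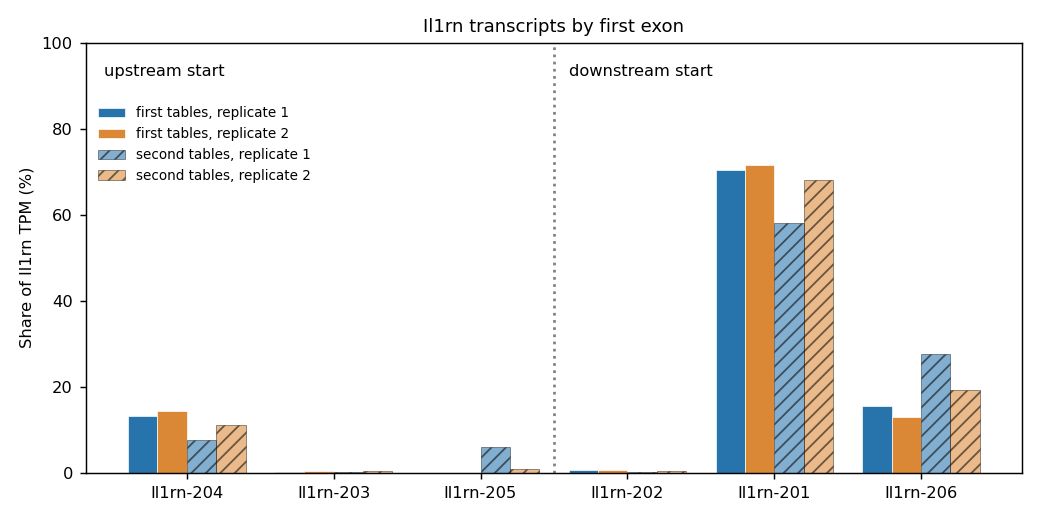
Share of Il1rn TPM (percent, axis from 0) on each annotated transcript, upstream starts left of the dotted line and downstream starts right of it, for replicate 1 (blue) and replicate 2 (orange) in the first tables (solid) and the second tables (hatched). Il1rn-201 takes between 58.1% and 71.5% in every bar.

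Nlrp3, the sensor of many forms of cell damage, had the highest mean TPM of the 10. Its level was 117 TPM in replicate 1 and 113 TPM in replicate 2, from 21416 and 7576 counts, which put it at percentile 97.7 and 96.8 of detected protein-coding genes. It lies at chr11:59541568-59566956 on the plus strand. Aim2, the sensor of DNA in the cytosol, had 38.4 TPM in replicate 1 and 48.4 TPM in replicate 2, from 1438 and 720 counts. Nlrp3 was 3.04 times as high as Aim2 in replicate 1 and 2.33 times in replicate 2, a log2 ratio of 1.41 ± 0.27 (SD, n = 2) in TPM, against 0.91 ± 0.04 in the second tables. Aim2, at chr1:173350879-173466040 on the plus strand, spreads over 6 groups of starts, and its shares depended on the unit: the transcript with most counts, Aim2-204, had 71.1% of Aim2 counts in replicate 1 but 29.3% of its TPM. They depended on the table as well: Aim2-204 had 41.8% and 22.8% of the counts in the second tables, where Aim2-202 had 25.3% and 54.4%, against 7.63% and 8.04% in the first tables. All 3 annotated Nlrp3 transcripts are coding, and the split between its 2 start groups depended on the table, with 77.0% and 62.2% of TPM on Nlrp3-201 in the first tables, against 41.2% and 43.8% in the second tables.

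Pycard, whose product ASC links the sensors to caspase-1, had the lowest level of the 10. It had 6.42 TPM in replicate 1 and 10.8 TPM in replicate 2, from 1088 and 812 counts, and stood at percentile 49.4 and 53.8 of detected protein-coding genes, so near the middle. Nlrp3 exceeded Pycard 18.2-fold in replicate 1 and 10.5-fold in replicate 2, a log2 ratio of 3.79 ± 0.56 (SD, n = 2) in TPM. TPM divides by length, and nearly all Pycard counts were on Pycard-201 (chr7:127989708-127993867, minus strand), annotated with 3800 bases of which 579 are coding. How much of those bases the RNA in these cells holds was not tested.

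The inflammatory caspase genes Casp1 and Casp4 both lie on the plus strand of chromosome 9, at chr9:5298517-5307265 and chr9:5308828-5336783, with 1562 bases between them. Casp4 had 61.6 TPM in replicate 1 and 92.7 TPM in replicate 2, from 2726 and 1972 counts. Casp1 had 31.1 TPM in replicate 1 and 32.4 TPM in replicate 2, from 1933 and 870 counts. Casp4 was therefore higher than Casp1 in both libraries, 1.98-fold and 2.86-fold, a log2 ratio of 1.25 ± 0.37 (SD, n = 2) in TPM. In the second tables the ratio was 2.96 and 3.48. That order is for whole genes. By annotated type, 64.2% of Casp4 TPM in replicate 1 and 77.6% in replicate 2 was on transcripts not annotated as protein-coding. Casp1 has 1 annotated transcript, a coding one, so it could show no share on other types. The coding transcript Casp4-201 had 22.1 and 20.8 TPM, below Casp1 in both libraries. Whether reads of unspliced RNA fell on the other Casp4 transcripts was not tested, so the coding RNA of both genes cannot be ranked from these values.

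Gsdmd, which encodes the pore protein that both caspases cut, had 71.6 TPM in replicate 1 and 51.0 TPM in replicate 2, from 3110 and 990 counts, at chr15:75862327-75867408 on the plus strand. As a whole gene it exceeded Casp1 2.30-fold and 1.57-fold in TPM, a log2 ratio of 0.93 ± 0.39 (SD, n = 2). Its retained-intron transcripts took 51.0% and 55.1% of Gsdmd TPM, so that Gsdmd-201, the longest coding transcript, had 31.5 and 20.8 TPM. Casp1 had 31.1 and 32.4 TPM, so Gsdmd-201 was close to it in replicate 1 and below it in replicate 2. Whether reads of unspliced RNA fell on the retained-intron transcripts was not tested, so the coding RNA of Gsdmd and Casp1 cannot be ranked. Within the retained-intron class the libraries disagreed: Gsdmd-205 had 30.4% of Gsdmd TPM in replicate 1 and 6.14% in replicate 2, and Gsdmd-206 had 3.60% and 33.0%.

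In order of mean TPM the members ran Nlrp3 (114.9 TPM), Il1a (94.7 TPM), Il1b (82.4 TPM), Casp4 (77.1 TPM), Gsdmd (61.3 TPM), Aim2 (43.4 TPM), Il1rn (37.8 TPM), Casp1 (31.7 TPM), Il18 (29.5 TPM) and Pycard (8.6 TPM). The ranges of the 2 libraries overlapped for 6 of the 9 neighbouring pairs in this order. The pairs whose ranges did not overlap were Gsdmd over Aim2, Casp1 over Il18 and Il18 over Pycard. In the second tables Gsdmd was below Aim2 in replicate 2, at 44.1 against 44.8 TPM. The credibility intervals of TPM overlapped for Gsdmd (44.6 to 55.2) and Aim2 (41.6 to 53.7) in replicate 2, but not in replicate 1. Those of Casp1 and Il18 overlapped in both libraries. Over all 45 pairs of members, 38 had the same order in both libraries, and 31 kept it in both libraries of both kinds of table.

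Transcripts typed other than protein-coding are annotated for 5 members, and their shares depend on which transcripts are annotated. Whether reads of unspliced coding RNA were placed on them was not tested, so the shares do not measure how much of each level is coding RNA. By TPM they took 64.2% and 77.6% of Casp4, 51.0% and 55.1% of Gsdmd, 51.6% and 59.2% of Aim2, 15.8% and 13.3% of Il1rn, and 12.1% and 7.14% of Il1b in replicates 1 and 2. Retained introns made up 55.4% and 60.2% of Casp4 TPM and all of that share in Gsdmd, whereas in Aim2 it was short processed transcripts. The median over the 5 was 53.0% ± 2.87, against 30.4% ± 4.69 over 9118 protein-coding genes with such transcripts (SD, n = 2 libraries). By counts the median was 11.8% ± 2.58, against 15.8% ± 3.14, and in the second tables it was 44.1% ± 4.28, against 45.2% ± 3.20, so on those scales the members' median was the lower one. Casp4 was the highest of the 5 on all of these scales, with 52.1% and 73.1% of its counts and 74.3% and 79.2% of its TPM in the second tables. Il1a, Il18, Nlrp3, Casp1 and Pycard have only coding transcripts annotated, so no share on other types could appear for them.

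**Figure D3:**
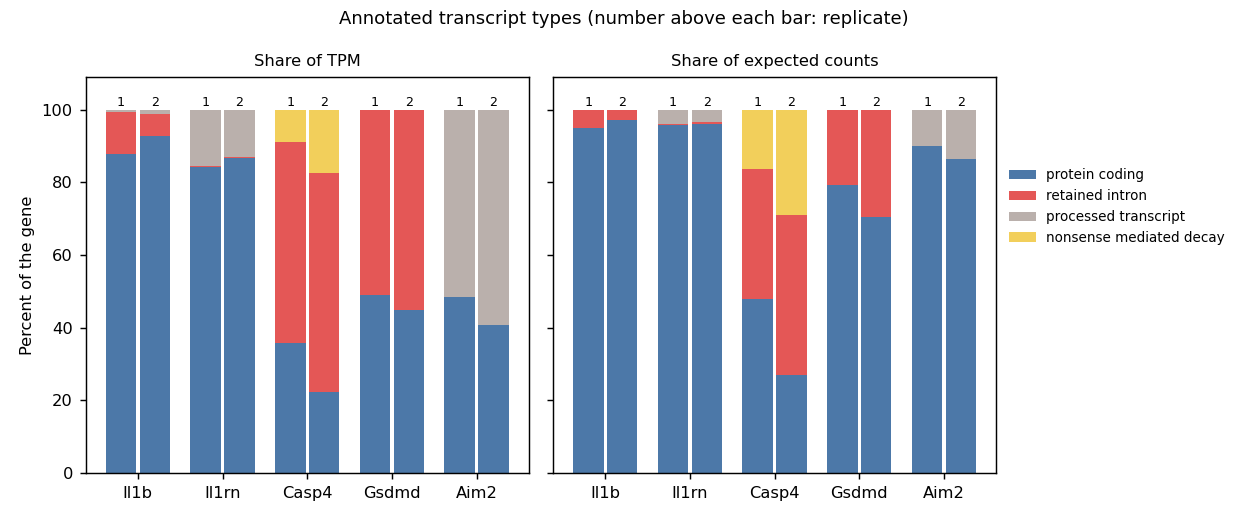
Percent of each gene's TPM (left) and expected counts (right) by annotated transcript type, for the 5 members that have types other than protein-coding, with the replicate number above each bar. In both libraries the types other than protein-coding take most of the TPM of Casp4, Gsdmd and Aim2, but most of the counts of Casp4 alone.

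Near-identical transcripts and overlapping genes limit some of these values. Il18-201 and Il18-202 have 702 bases each and differ at 7 of them. The first tables put 529 and 241 counts on Il18-202 and 0 on Il18-201 in both libraries, whereas the second tables gave Il18-201 the larger part, 7.03 and 6.48 TPM, against 1.96 and 1.43 TPM for Il18-202, so the split between them is uncertain. Genes on the opposite strand overlap Il1a (Gm14023, with 419 and 294 counts), Il1b (Il1bos, 25 and 31 counts), Il18 (Bco2 and Tex12), Aim2 (Cadm3) and Pycard (Gm45205). Of the words of 31 bases in Il1a transcripts, 10.03% also occur in Gm14023, and 12.7% of those in Pycard occur in 6 other genes that include Gm45205. In Aim2, 5.26% of the words occur in 213 other genes, in Casp4 1.98% in 24 and in Il1rn 0.379% in 2723. Transcripts of Il1b, Il18, Nlrp3, Casp1 and Gsdmd had 0 such words in common with other genes. The strand setting was not given in the sources used here, so reads of bases that a gene shares with its opposite partner cannot be told apart.

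The libraries were also compared with each other, on counts scaled by TMM (a factor that makes most genes equal), by an exact two-sided binomial test with Benjamini-Hochberg adjustment over 14691 genes and a threshold of 0.05. This compares 2 libraries, covers counting error only and says nothing of a condition. By this test 9 of the 10 members differed, 5 higher in replicate 1 and 4 higher in replicate 2. Most genes tested differed too: 59.9% were called, made up of 30.2% with replicate 1 higher and 29.7% with replicate 2 higher. Scaling by library size alone called all 10 members, 5 in each direction, and moved the part of all called genes that were higher in replicate 1 to 36%, against 50.4% with TMM. It also moved the median log2 ratio of all genes to -0.17, against -0.01 with TMM.

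Gsdmd differed most, with a log2 ratio of replicate 1 over replicate 2 of 1.07 (95% interval 0.96 to 1.17, adjusted p = 2.09e-100, exact binomial test). Nlrp3 followed at 0.92 (0.88 to 0.95), with an adjusted p too small for the computer to represent. Il18 was at 0.67 (adjusted p = 7.72e-12), Casp1 at 0.57 (adjusted p = 6.15e-22) and Aim2 at 0.41 (adjusted p = 8.88e-10), all higher in replicate 1 by the exact binomial test. On deposited TPM, which is not scaled between the libraries, the log2 ratios of Casp1 and Aim2 turned to -0.0605 and -0.33. Higher in replicate 2 were Il1rn at -0.33 (adjusted p = 1.70e-11), Pycard at -0.16 (adjusted p = 0.0282), Il1a at -0.16 (adjusted p = 1.89e-07) and Casp4 at -0.12 (adjusted p = 0.0123) by the same exact binomial test. Il1b, at 0.07 (95% interval -0.0043 to 0.15), was not called (adjusted p = 0.0979, exact binomial test), and its ratio was -0.09 with library-size scaling and -0.51 on deposited TPM. With the counts of the second tables the ratios of Il1a and Casp4 turned to 0.19 and 0.19, higher in replicate 1. Those tables called 8 members higher in replicate 1 and 1 higher in replicate 2. Over all genes they called 14908 of 23681, and 49.1% of the called genes were higher in replicate 1. There Il1b was called, at 0.39 (adjusted p = 1.64e-30, exact binomial test), and Pycard was not, at -0.00015 (adjusted p = 1.0).

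The spread between these libraries gives a scale for the members. The biological coefficient of variation estimated by edgeR over all genes was 0.335, at which 1 SD of such a log2 ratio is 0.68. Within it lay 8 of the 10 members and 67.8% of all genes tested, and only Nlrp3 and Gsdmd lay beyond it. That SD was fitted to the differences between these same libraries, so the share of all genes within it is not a separate result. Within a 2-fold difference lay 9 of the 10 members, all but Gsdmd, and 82.6% of all genes. The median log2 ratio was 0.24 over the members and -0.01 over all genes tested, whose 5th and 95th percentiles were -1.38 and 1.14. The starting RNA amount differs with the replicate, so these 2 sources of a difference cannot be told apart.

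**Figure D4:**
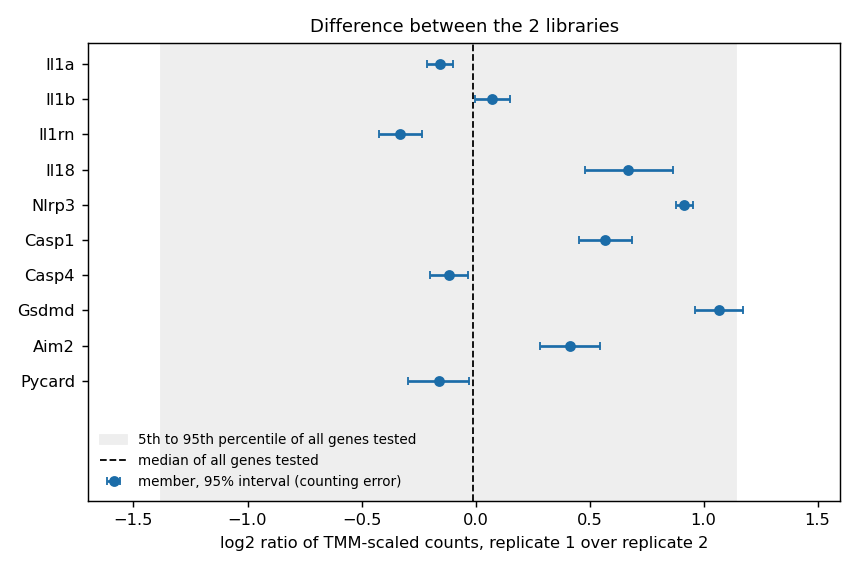
Log2 ratio of TMM-scaled counts, replicate 1 over replicate 2, for each member, with 95% intervals that cover counting error only. The grey band runs from the 5th to the 95th percentile of all genes tested (-1.38 to 1.14) and the dashed line marks their median; all 10 members lie inside the band, and Gsdmd at 1.07 is nearest its edge.

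A list of 50 further genes of the pathway, grouped by role, showed which partners of the members were present. Detected in both libraries were 26 of them, and 23 were below 1 TPM in both. Of the 35 with enough counts to test, 19 (54.3%) were higher in replicate 1 and 6 (17.1%) higher in replicate 2 by the exact binomial test described above, against 30.2% and 29.7% of all genes tested. With library-size scaling these counts were 16 (45.7%) and 8 (22.9%). Over all genes that scaling called 9000 of 14691, and 36% of the called genes were higher in replicate 1. Again 26 of the 50 were detected in the second tables, with Il18rap in place of Il1rap. The other IL-1 family cytokines of the list were not detected. Il1f9 had 0.06 TPM in replicate 1 and 0.10 TPM in replicate 2, but 0.889 and 3.15 TPM in the second tables. In the first tables, Il33, Il1f5, Il1f6, Il1f8 and Il1f10 had 0 counts, which allows up to 3 counts, a CPM (counts scaled by the library total) of 0.105 in replicate 1 and 0.177 in replicate 2, for counting error only.

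Of 10 receptors and binding proteins, 2 were detected. Il18bp, which encodes a secreted protein that binds and neutralises IL-18, had 52.7 TPM in replicate 1 and 46.7 TPM in replicate 2, above Il18 itself in both libraries. Il1rap, the accessory chain shared by receptors of the family, had 1.08 and 2.66 TPM, and 0.561 and 2.18 TPM in the second tables. The signalling IL-1 receptor gene Il1r1 had 0.07 and 0.13 TPM, and the decoy receptor gene Il1r2 had 0.24 and 0.33 TPM. Il1rl2, a receptor chain for IL-36, had 0.58 and 0.83 TPM. The IL-18 receptor genes depended on the table. Il18r1 had 0.01 and 0 TPM, against 0.503 and 2.74 TPM in the second tables. Il18rap had 0.07 and 0.58 TPM, against 1.14 and 3.89 TPM in the second tables, which detected it. Il1rl1 and Sigirr were at 0.10 TPM or less in both libraries and Il1rapl1 was at 0.

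Sensor genes other than Nlrp3 and Aim2 were detected in 6 of 11 cases, each below Nlrp3 in both libraries. The highest was Mefv, which encodes pyrin, with 36.7 TPM in replicate 1 and 27.4 TPM in replicate 2. Next came Naip2, whose product binds the inner rod protein of bacterial secretion systems, with 11.9 and 11.6 TPM. The flagellin receptor genes Naip6 and Naip5 had 8.98 and 11.5 TPM and 7.6 and 7.44 TPM; the NAIP genes are close copies of each other, so their counts are uncertain. Nlrp1b had 4.51 and 9.29 TPM, and Nlrc4, the partner of the NAIP proteins, had 2.69 and 3.11 TPM. Below 1 TPM in both libraries were Nlrp1a (0.46 and 0.58 TPM), Naip1 (0.30 and 0.31 TPM), Nlrp10 (0.10 and 0.09 TPM), Nlrp6 (0.02 and 0 TPM) and Nlrp12 (0 in both, but 0.116 and 2.13 TPM in the second tables).

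Regulators and triggers of inflammasomes were detected in 7 of 8 cases. The guanylate-binding protein genes Gbp5, at 177 TPM in replicate 1 and 248.97 TPM in replicate 2, and Gbp2, at 140 and 127 TPM, stood above every member in both libraries of the first tables. In the second tables Gbp2, with 62.8 and 82.2 TPM, was below Nlrp3 in both libraries. Gm12250, an immunity-related GTPase gene, had 32.3 and 34.2 TPM, and Nek7, the kinase that binds NLRP3, had 10.1 and 19.3 TPM. The exception was Panx1, a channel gene, with 0.86 and 4.95 TPM. Among other caspases and pore proteins 5 of 9 were detected, led by Ninj1, which ruptures the membrane of dying cells, with 43.5 and 44.7 TPM. Casp8 had 17.9 and 31.3 TPM. All 6 signalling genes were detected, led by the kinase gene Irak2 with 63.1 and 72.8 TPM, Myd88 with 26.2 and 21.1 TPM, Irak1 with 11.1 and 15.5 TPM, and Tollip with 10.8 and 15.7 TPM.

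**Figure D5:**
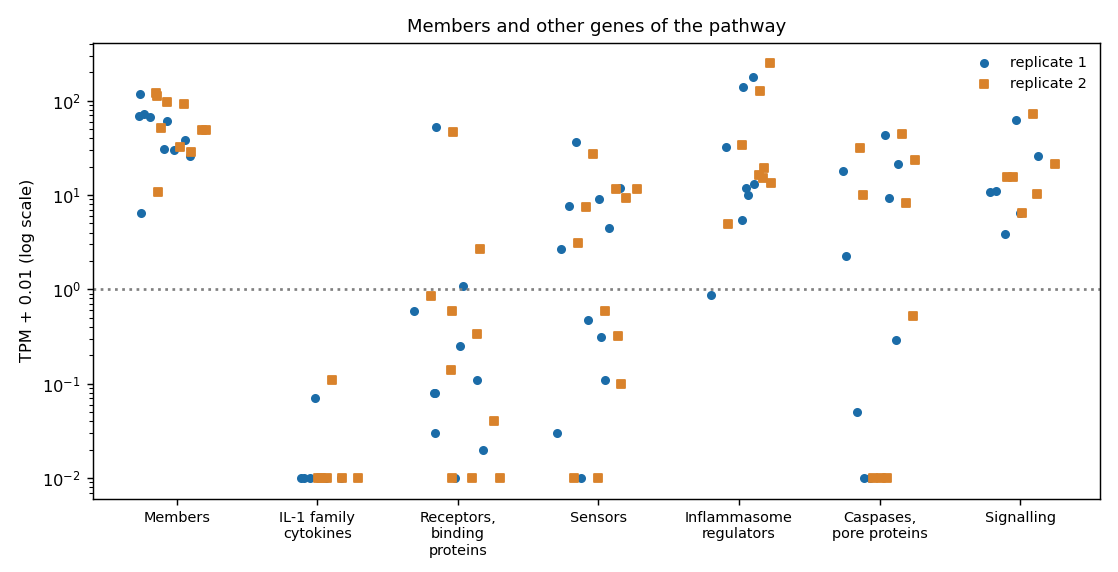
TPM + 0.01 (log axis) in replicate 1 (circles) and replicate 2 (squares) of the 10 members and of the 50 other pathway genes by role, each point 1 gene in 1 library, with the dotted line at 1 TPM. All members are above the line, all 6 signalling genes are above it, and the 6 other IL-1 family cytokines are all below it.

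The genes nearest in level to Il1b were Ccnl1 (67.8 and 94.55 TPM), Frmd4b (70.3 and 98.5 TPM) and Cdkn1a (69.7 and 93.4 TPM), and those nearest to Nlrp3 were H2-Q7 (121 and 117 TPM), Itgb2 (112 and 116 TPM) and Ifi211 (113.9 and 107.6 TPM). Nearness was the larger of the absolute log2 differences in TPM over the 2 libraries, at most 0.07 for these, among 11318 protein-coding genes.

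The labelled cell type was checked against its markers. The libraries held 28450309 (replicate 1) and 16940220 (replicate 2) expected counts in genes, of which the members took 0.154% and 0.128%. All 7 macrophage markers were detected, with a summed TPM of 2398 and 2472. Of 43 markers of neutrophils, dendritic cells, lymphocytes, mast cells, fibroblasts, endothelial, erythroid and epithelial cells, 2 were detected, Cd4 (13.9 and 13.5 TPM) and Kdr (12.0 and 8.30 TPM), and the 43 summed to 30.8 and 27.3 TPM. The second tables detected 5 of the 43, with Pecam1 (1.45 and 14.4 TPM), Cd3d (1.002 and 5.57 TPM) and Alas2 (1.45 and 3.41 TPM) added, and their sum over the 43 was 19.1 and 45.3 TPM. The part of such cells in the members' levels was not tested. None of the 7 neutrophil markers, of a cell type known as a source of Il1b, was detected, with a summed TPM of 0.85 and 0.79, or 0.741 and 1.16 in the second tables. In bulk RNA, fewer cells expressing a gene and less RNA per cell cannot be told apart.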

How the data were processed

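Ribosome-depleted total RNA from macrophage nuclei was measured in 2 libraries of 1 group. Per the file headers, each deposited table for genes and for transcripts holds expected counts, TPM, posterior mean TPM, bounds of a credibility interval of TPM (a signal in TPM) and effective lengths, on mm10 with GENCODE M21. The authors' second transcript tables hold estimated counts and TPM, summed per gene here. Not given in the sources used here are the tools, the aligner and the strand setting. Rows that name no mouse gene, 1.79% of counts in replicate 1 and 0.318% in replicate 2, stayed out of library sizes and tests. All 55536 gene identifiers matched GENCODE M21.

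Expected counts were rounded, kept at a mean of 10 or more (14691 genes) and scaled by TMM (edgeR 4.0.16, R 4.3.3). They were compared by an exact binomial test (scipy 1.17.1, Python 3.11.15), with 95% exact intervals. The test was first run on simulated counts with counting error only, which cannot show how it handles other spread between libraries. Starts within 100 bases formed a group. Values are mean ± SD over 2 libraries, which may not be separate animals, so the spread may be technical. PCR copies are not independent molecules, and intervals cover counting error only. Alternatives were the second tables, posterior mean TPM, TPM over protein-coding genes, library size or DESeq2 1.42.0 size factors, no count filter and leaving out a replicate. Named were all members, up to 4 genes a role by mean TPM with the receptors and sensors below 1 TPM, and the 3 genes nearest Il1b and Nlrp3; Nlrp1b, Nlrc4 and Panx1 were named after their values were seen. Some genes that this rule selects are not reported here. The members and lists were chosen with earlier results of these data known.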

Additional observations from a re-analysis of the deposited data

How the results depend on the processing

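All 10 members were detected in the second tables and by posterior mean TPM, and leaving out either library changed no call of detection. The median member level was 50.1 TPM, 39.0 TPM in the second tables, 49.2 by posterior mean TPM and 257 over protein-coding genes, and without 1 replicate it was between 49.99 and 50.26. The Il1rn downstream share was 85.8%, 86.9% in the second tables and 80.4% by counts, and without 1 replicate it was between 85.1% and 86.5%. The median share on types other than protein-coding was 53.0%, 44.1% in the second tables and 11.8% by counts, and without 1 replicate it was between 51.0% and 55.1%. The log2 ratio of Il1rn over Il1b was -1.17, between -1.38 and -0.96 without 1 replicate, -1.16 by posterior mean and -1.004 in the second tables. Members called between the libraries numbered 9, 10 with library size, 9 with DESeq2 size factors, 8 with no filter on counts and 9 in the second tables. Over all genes the calls were 8799 of 14691, 9000 of 14691 with library size and 8818 of 14691 with DESeq2 size factors. They were 8878 of 22267 with no filter, and 14908 of 23681 from the second tables. With no filter, 6 called members were higher in replicate 1 and 2 were higher in replicate 2, against 5 and 4 with the filter. The log2 ratio changed sign for Il1b with library size (-0.0913), for Il1a (0.19) and Casp4 (0.19) in the second tables, and for Il1b (-0.51), Casp1 (-0.0605) and Aim2 (-0.33) on deposited TPM; the cause was not tested. No paired analysis was possible because there is 1 group. With 2 libraries the SD itself is imprecise. Chosen after seeing the data, the second tables gave 26 pathway genes detected, against 26, and 5 markers of other cell types, against 2.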
